A study of Mus musculus with 36 samples.

Results

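The sestrins form a small family of stress-inducible proteins, and the mouse genes *Sesn1*, *Sesn2* and *Sesn3* are its members. They were taken from the count matrix by gene name, are 3 of its 55416 genes, and all 3 were among the 13995 genes with at least 1 CPM (a count scaled by the size of its library) in at least 12 of the 36 libraries. They were selected for their levels across the 6 groups and for how the response to stimulation differed with *Tug1* knockdown, so their own values are given as a description without a test. The differentially expressed genes of the surrounding pathway are those with an FDR under 0.05 in edgeR's quasi-likelihood test across all 13995 genes.

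Sestrins are transcribed in response to DNA damage, oxidative stress and lack of nutrients, with p53 and FOXO factors known to act on *Sesn1*, FOXO factors on *Sesn3*, and p53, ATF4 and NRF2 on *Sesn2*. The proteins bind the GATOR2 complex, which counteracts GATOR1 at the lysosome, and so restrain mTORC1, the kinase complex that drives protein synthesis. SESN2 is a leucine sensor in this branch, and sestrins also act with AMPK and with the antioxidant pathway of KEAP1 and NRF2. In skeletal muscle they have been linked to the benefits of exercise and to protection from atrophy.

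All libraries came from C2C12, a mouse myoblast line that fuses into myotubes in low-serum medium. Myotubes received a *Tug1* antisense LNA (*Tug1* KD) or a negative control LNA (control) on day 3 of differentiation, and on day 4 they were left unstimulated (Rest), harvested straight after 3 h of electrical pulse stimulation (EPS 0h) or harvested 3 h later (EPS 3h). EPS makes myotubes contract and was given at 13 V and 66 Hz with 2 ms pulses, alternating 5 s of stimulation with 5 s of pause, while electrodes in the Rest wells were left unconnected. No separate unstimulated group is listed for the 3 h of recovery. In EPS 3h against Rest, stimulation and longer culture therefore cannot be told apart. Each of the 6 groups held 6 libraries, 1 per well, from 2 independent experiments in a single cell line. Which replicate numbers belong to which experiment is not given in the sources used here, and wells of the same experiment share a culture, so the spread between libraries may be partly technical.

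The libraries held 17005079 to 24181167 counts on genes. *Tug1*, the long noncoding RNA targeted, was at 38.6 to 58.3 CPM in control and 24.0 to 33.3 CPM in *Tug1* KD libraries at Rest, at 55.0 to 80.6 and 29.5 to 61.9 CPM at EPS 0h and at 54.6 to 107 and 40.0 to 84.6 CPM at EPS 3h, so the groups overlapped after EPS. It fell by 0.83 (SE 0.171, FDR = 0.000915), 0.57 (SE 0.169, FDR = 0.0178) and 0.51 (SE 0.168, FDR = 0.0414) on the log2 scale with *Tug1* KD at Rest, EPS 0h and EPS 3h. The summed level of 13 myotube markers lay between 16093 and 24888 CPM, and that of 7 markers of proliferating myoblasts between 135 and 232 CPM, over the 36 libraries, and *Myog*, which marks differentiating muscle cells, was at 733 to 1231 CPM. In this bulk RNA, fewer cells that transcribe a gene and less RNA per cell cannot be told apart.

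*Sesn1* (ENSMUSG00000038332) lies on the plus strand of GRCm39 at chr10:41685931-41784423 and has 13 annotated transcripts, *Sesn2* (ENSMUSG00000028893) on the minus strand at chr4:132219335-132237815 with 6, and *Sesn3* (ENSMUSG00000032009) on the plus strand at chr9:14186363-14244397 with 11. For *Sesn1*, 2 of the annotated starts were taken, the canonical one and a distal one 77504 bases away, and the counts per gene do not separate them. The 250 bases before each start are shown so that the promoters of members with different patterns can be compared by letter. For *Sesn2* and *Sesn3* only the canonical start was taken. The *Sesn3* window, like that of the canonical *Sesn1* start, lies inside the annotated gene. The windows are chr10:41763185-41763434 and chr10:41685681-41685930 for *Sesn1*, chr4:132237816-132238065 for *Sesn2* and chr9:14187347-14187596 for *Sesn3*, each read 5′ to 3′ on the gene's own strand in GRCm39, and capitals mark matches to the motifs described after them.
Sesn1, canonical start: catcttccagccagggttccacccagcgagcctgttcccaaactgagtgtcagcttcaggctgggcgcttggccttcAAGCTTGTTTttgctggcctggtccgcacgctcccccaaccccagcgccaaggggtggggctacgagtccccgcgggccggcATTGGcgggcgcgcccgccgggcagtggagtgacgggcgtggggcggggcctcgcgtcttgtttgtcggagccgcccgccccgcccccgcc
Sesn1, distal start: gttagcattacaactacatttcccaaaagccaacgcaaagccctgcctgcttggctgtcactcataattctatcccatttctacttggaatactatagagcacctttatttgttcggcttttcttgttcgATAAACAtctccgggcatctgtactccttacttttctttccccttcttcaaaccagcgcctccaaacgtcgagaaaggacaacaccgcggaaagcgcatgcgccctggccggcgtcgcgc
Sesn2, canonical start: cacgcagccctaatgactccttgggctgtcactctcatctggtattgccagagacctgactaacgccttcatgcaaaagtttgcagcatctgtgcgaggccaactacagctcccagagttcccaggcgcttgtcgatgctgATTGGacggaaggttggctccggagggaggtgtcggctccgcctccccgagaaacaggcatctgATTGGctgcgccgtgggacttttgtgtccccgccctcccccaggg
Sesn3, canonical start: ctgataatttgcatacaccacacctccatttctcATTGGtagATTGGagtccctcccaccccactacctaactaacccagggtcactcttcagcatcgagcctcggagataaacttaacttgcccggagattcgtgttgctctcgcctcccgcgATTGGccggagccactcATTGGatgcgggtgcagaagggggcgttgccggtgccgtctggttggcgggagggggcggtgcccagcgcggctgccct

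The windows differed in composition. GC content was 71.2% with 24 CpG dinucleotides at the canonical *Sesn1* start and 48.8% with 15 at the distal start, while *Sesn2* and *Sesn3* both had 59.6% with 13 and 16, beside a median of 56.4% over the windows of 13945 tested genes. Motifs were searched on both strands, and the CCAAT and TGTTTAT motifs were added after the letters had been read. CCAAT, the box bound by NF-Y, occurred in 35.4% of all windows. It was found once at the canonical *Sesn1* start, in a pair at *Sesn2* (beginning 109 and 45 bases before the start), and 4 times at *Sesn3* (216, 208, 96 and 79 bases before it), and its reverse complement is what the capitals show. The p53 response element unit, which occurred in 6.38% of windows, was present 173 bases before the canonical *Sesn1* start. TGTTTAT, a letter away from the FOXO core TGTTTAC, occurred in 3.03% of windows and stood 120 bases before the distal *Sesn1* start. The FOXO core itself (2.37% of windows), the cAMP response element TGACGTCA (2.01%), the AP-1 site TGANTCA (5.03%), the C/EBP-ATF site TGATGNAAN (2.22%), the antioxidant response element core TGACNNNGC (10.6%), the heat shock unit pair TTCNNGAA (6.47%) and the E-box CAGCTG (11.6%) had no match in any of these 4 windows.

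*Sesn1* was the sestrin whose level differed most with *Tug1* KD, and the difference was large after EPS. At Rest, control libraries had a lowest, median and highest level of 47.9, 55.2 and 59.8 CPM, and *Tug1* KD libraries of 55.7, 67.3 and 74.5 CPM. At EPS 0h these values were 52.3, 67.7 and 81.1 CPM in control and 95.4, 136 and 188 CPM in *Tug1* KD myotubes. At EPS 3h they were 44.0, 54.1 and 70.3 CPM in control and 82.9, 109 and 151 CPM in *Tug1* KD myotubes. All 6 *Tug1* KD libraries were above all 6 control libraries at both EPS time points, whereas 5 of 6 were at Rest. Over all genes tested, 4.83% were as cleanly separated and higher with *Tug1* KD at EPS 0h, and 2.68% at EPS 3h.

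**Figure D1:**
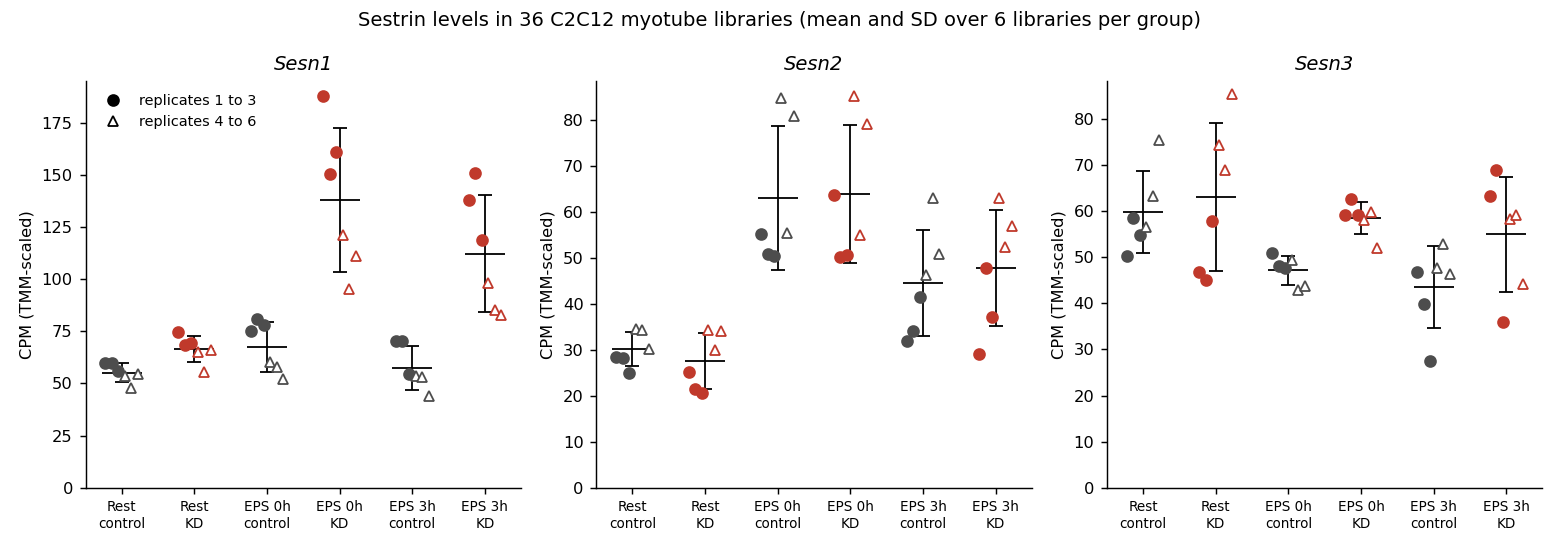
CPM (linear axis from 0) of *Sesn1*, *Sesn2* and *Sesn3* in each of the 36 libraries by group, with the group mean and SD (n = 6), replicates 1 to 3 as circles and replicates 4 to 6 as triangles. *Sesn1* libraries of *Tug1* KD myotubes at EPS 0h and EPS 3h lie above every control library of the same time point, while *Sesn2* is higher at EPS 0h than at Rest with either LNA.

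In means, *Sesn1* was 55.2 ± 4.40 CPM in control and 66.5 ± 6.27 CPM in *Tug1* KD myotubes at Rest (SD, n = 6), a log2 difference of 0.27 (SE 0.150). At EPS 0h it was 67.4 ± 12.04 and 138 ± 34.6 CPM, a log2 difference of 1.03 (SE 0.150) or 2.04-fold. At EPS 3h it was 57.6 ± 10.5 and 112 ± 28.2 CPM, a log2 difference of 0.96 (SE 0.151) or 1.95-fold. Between libraries of the same replicate number, *Tug1* KD was higher in 6 of 6 pairs in each condition, by 0.20 to 0.32 at Rest, 0.72 to 1.32 at EPS 0h and 0.69 to 1.12 at EPS 3h on the log2 scale. Counts of such pairs are only a description, since the labels do not pair wells. For *Tug1* KD at Rest the replicate numbers did not behave as pairs over all genes.

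Seen along the stimulation, *Sesn1* in control myotubes differed from Rest by 0.29 at EPS 0h and 0.06 at EPS 3h (log2, SE 0.150 for both), with overlapping libraries. At EPS 0h the difference was 0.41 among replicates 1 to 3 alone, against 0.13 for replicates 4 to 6, and 5 of 6 pairs of the same replicate number were higher. At EPS 3h it was 0.17 and -0.05 in the same sets, and it also changed sign when libraries were scaled by size alone (-0.11). In *Tug1* KD myotubes it was 2.07-fold higher at EPS 0h (log2 difference 1.05, SE 0.150) and 1.69-fold higher at EPS 3h (0.76, SE 0.150). Neither time point overlapped with Rest in *Tug1* KD myotubes, a separation that 13.0% of all genes tested showed upwards at EPS 0h and 15.9% at EPS 3h. With replicate number as a block, the EPS response of *Sesn1* was larger with *Tug1* KD by 0.75 (SE 0.123) at EPS 0h and 0.68 (SE 0.123) at EPS 3h, and without the block by 0.76 (SE 0.211) and 0.69 (SE 0.212). These contrasts share the Rest libraries, and they are the values by which the gene was chosen. Without the block their absolute sizes ranked 242 at EPS 0h and 380 at EPS 3h among 13995 genes. The number of all genes past the FDR threshold for these contrasts was 0 at EPS 0h and 1 at EPS 3h (1 and 8 with the block).

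The difference between LNAs in the *Sesn1* response was above 0 in both sets of replicates, but its size was not the same. In replicates 1 to 3 the EPS response was larger with *Tug1* KD by 0.83 at EPS 0h and 0.79 at EPS 3h, and in replicates 4 to 6 by 0.68 and 0.56. Its level was lower in replicates 4 to 6 in all 6 groups, the ratio of set means lying between 0.65 at EPS 3h and 0.89 at Rest. The split into replicates 1 to 3 and 4 to 6 follows a separation of the libraries seen in the data, and its part in the result was not tested.

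**Figure D2:**
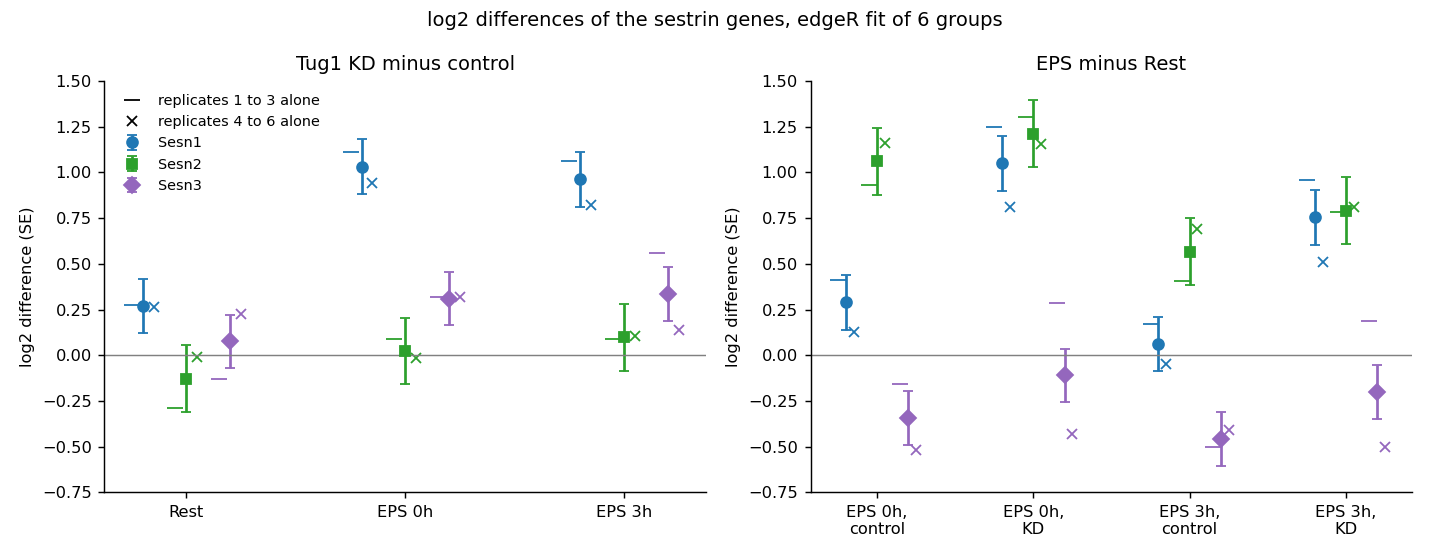
Log2 differences of each sestrin for *Tug1* KD against control and for EPS against Rest, with SE bars, from the fit to 36 libraries, and with the values of replicates 1 to 3 alone (dashes) and replicates 4 to 6 alone (crosses). *Sesn1* stands near 1 for *Tug1* KD at both EPS time points and near 0 for EPS 3h in control myotubes, and *Sesn2* stands near 1 for EPS 0h in both.

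*Sesn2*, which encodes the leucine sensor, followed the stimulation with either LNA and differed little with *Tug1* KD. Control libraries had a lowest, median and highest level of 25.0, 29.3 and 34.6 CPM at Rest, 50.3, 55.3 and 84.8 CPM at EPS 0h and 31.9, 43.9 and 63.0 CPM at EPS 3h. *Tug1* KD libraries had 20.5, 27.5 and 34.2 CPM at Rest, 50.2, 59.2 and 85.2 CPM at EPS 0h and 29.1, 50.05 and 63.0 CPM at EPS 3h. No EPS 0h library was as low as any Rest library of the same LNA, while at EPS 3h some libraries were within the Rest range. Over all genes, 11.8% were separated upwards in this way at EPS 0h in control myotubes.

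The mean of *Sesn2* went from 30.1 ± 3.71 CPM at Rest to 62.9 ± 15.6 CPM at EPS 0h and 44.6 ± 11.5 CPM at EPS 3h with the control LNA (SD, n = 6). In *Tug1* KD myotubes it went from 27.6 ± 6.07 to 63.9 ± 15.0 and 47.7 ± 12.6 CPM. These are log2 differences from Rest of 1.06 (SE 0.184) and 0.57 (SE 0.183) in control and of 1.21 (SE 0.184) and 0.79 (SE 0.184) in *Tug1* KD myotubes, and in each of these 4 contrasts all 6 pairs of the same replicate number were higher with EPS. These counts too are only a description, and for EPS 3h in *Tug1* KD myotubes the numbers did not behave as pairs over all genes. From EPS 0h to EPS 3h *Sesn2* was lower by 0.50 (SE 0.182) in control and 0.42 (SE 0.182) in *Tug1* KD myotubes on the log2 scale.

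Between LNAs, *Sesn2* differed by -0.13 at Rest, 0.02 at EPS 0h and 0.10 at EPS 3h (log2, SE 0.183, 0.181 and 0.182), and the groups overlapped in each condition. The EPS 0h difference changed sign when the libraries were scaled by size alone (-0.01) or by upper quartile factors (-0.03). It also did so in replicates 4 to 6 alone (-0.01) and without replicate 1 (-0.01). With replicate number as a block, the EPS response differed between LNAs by 0.18 (SE 0.162) at EPS 0h and 0.24 (SE 0.163) at EPS 3h. The set means ran the other way to *Sesn1*, with *Sesn2* 1.21 to 1.51 times as high in replicates 4 to 6 as in replicates 1 to 3 in the 6 groups.

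*Sesn3* was the least variable of the family between groups, and was lower at both EPS time points in control myotubes. Its lowest, median and highest levels in control libraries were 50.2, 57.5 and 75.5 CPM at Rest, 43.0, 47.9 and 51.0 CPM at EPS 0h and 27.5, 46.6 and 52.8 CPM at EPS 3h. In *Tug1* KD libraries they were 45.0, 63.5 and 85.3 CPM at Rest, 52.1, 59.2 and 62.6 CPM at EPS 0h and 36.04, 58.6 and 68.9 CPM at EPS 3h. The *Tug1* KD libraries were all above the control libraries at EPS 0h, a separation shown by the 4.83% of genes given above, but the groups overlapped at Rest and at EPS 3h.

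The mean of *Sesn3* was 59.8 ± 8.81, 47.2 ± 3.14 and 43.5 ± 8.86 CPM in control (Rest, EPS 0h, EPS 3h), and 63.1 ± 16.0, 58.5 ± 3.50 and 54.9 ± 12.4 CPM in *Tug1* KD myotubes (SD, n = 6). In control myotubes it was lower than at Rest by 0.34 (SE 0.146) at EPS 0h and 0.46 (SE 0.147) at EPS 3h on the log2 scale, and at EPS 3h it was lower in 6 of 6 pairs of the same replicate number. With *Tug1* KD it was higher than control by 0.31 (SE 0.146) at EPS 0h and 0.34 (SE 0.147) at EPS 3h, against 0.08 (SE 0.146) at Rest. In replicates 1 to 3 and replicates 4 to 6 these values were 0.32 and 0.32 at EPS 0h, 0.56 and 0.14 at EPS 3h, and -0.13 and 0.23 at Rest. With replicate number as a block, its EPS response differed by 0.24 (SE 0.194) at EPS 0h and 0.27 (SE 0.195) at EPS 3h. The EPS 3h value changed direction between the sets, from 0.69 in replicates 1 to 3 to -0.091 in replicates 4 to 6 in fits of each set alone, and leaving out replicate 2 took the value without the block from 0.26 to 0.086.

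In *Tug1* KD myotubes the direction for *Sesn3* depended on the set of replicates. Pooled, the differences from Rest were -0.11 (SE 0.146) at EPS 0h and -0.20 (SE 0.146) at EPS 3h. In replicates 1 to 3 they were 0.29 and 0.19, and in replicates 4 to 6 they were -0.43 and -0.50. The Rest libraries of *Tug1* KD myotubes held 49.9 CPM in the mean of replicates 1 to 3 and 76.2 CPM in that of replicates 4 to 6, and the pooled SD of 16.0 CPM was the largest among the 6 groups for this gene. Leaving out replicate 6 turned the pooled EPS 0h difference to 0.01.

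**Figure D3:**
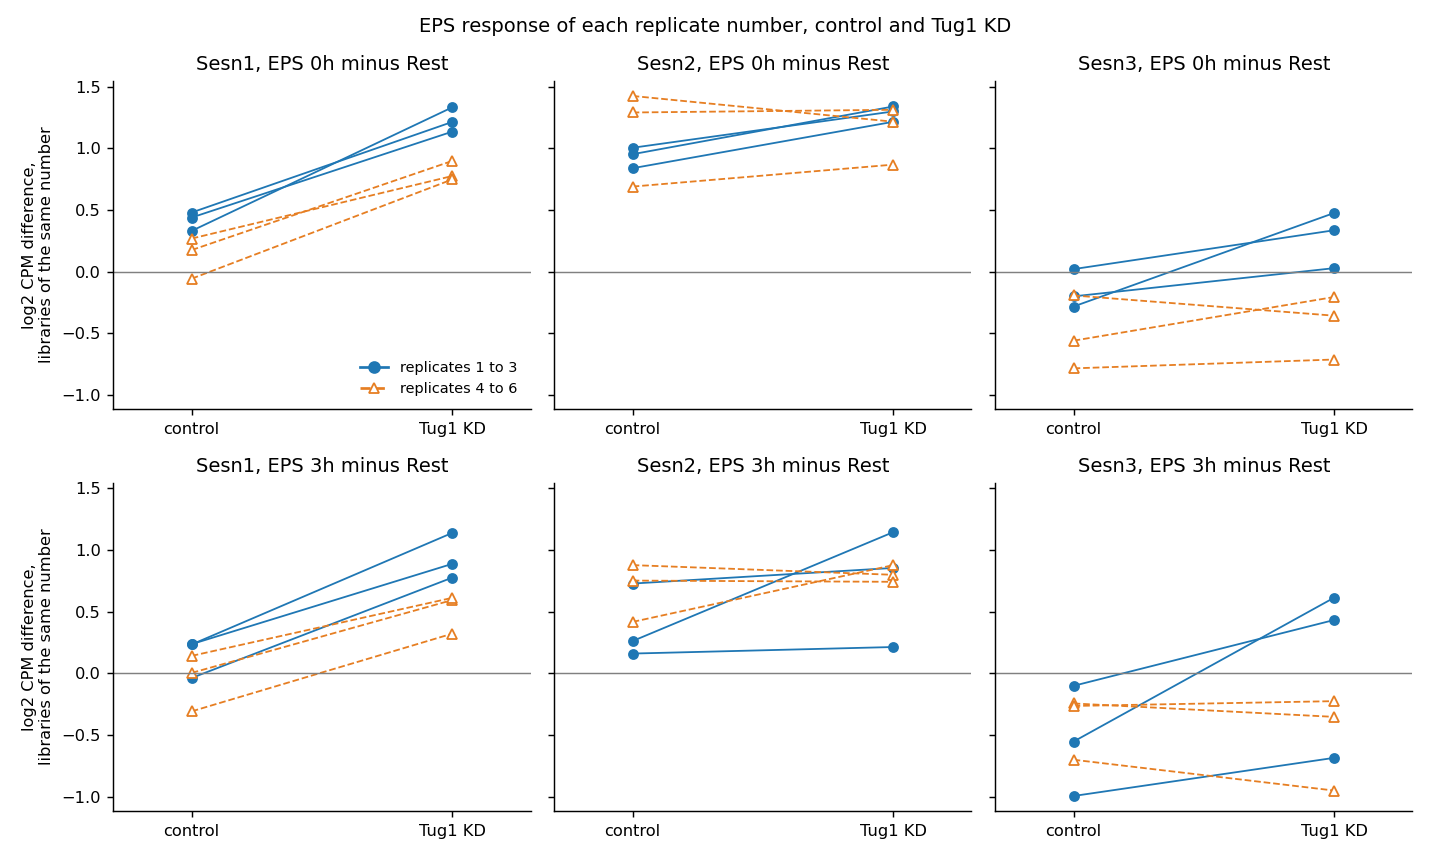
Log2 difference from Rest of each sestrin within each replicate number at EPS 0h and EPS 3h, in control and *Tug1* KD myotubes, with a line joining the values of the same number (circles for replicates 1 to 3, triangles for 4 to 6). For *Sesn1* the 6 *Tug1* KD values at EPS 0h range from 0.75 to 1.33, and for *Sesn3* in *Tug1* KD myotubes replicates 1 to 3 lie above 0 at EPS 0h and replicates 4 to 6 below.

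Ordered by mean CPM, *Sesn1* was highest in *Tug1* KD myotubes at EPS 0h, then *Tug1* KD at EPS 3h, control at EPS 0h, *Tug1* KD at Rest, control at EPS 3h and control at Rest. Among neighbours in that order, only *Tug1* KD at EPS 3h and control at EPS 0h did not overlap. *Sesn2* had both EPS 0h groups first, both EPS 3h groups next and both Rest groups last, and every pair of neighbours overlapped. *Sesn3* was highest in both Rest groups and lowest in control myotubes at EPS 3h, again with overlap between all neighbours. The order therefore followed LNA and stimulation together for *Sesn1*, and time after stimulation for *Sesn2*.

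On a scale per length, with CPM divided by the kilobases of the canonical transcript, control myotubes at Rest had levels of 21.2 ± 1.69 for *Sesn1*, 8.64 ± 1.06 for *Sesn2* and 6.56 ± 0.966 for *Sesn3* (SD, n = 6). *Sesn1* RNA was thus the most abundant per length, and at EPS 0h in *Tug1* KD myotubes the levels were 53.02, 18.3 and 6.41 on the same scale. With the shortest coding transcript as the length, the Rest control levels were 22.6, 14.3 and 23.1, so the order of *Sesn1* and *Sesn3* depended on the transcript used. The CPM of the 3 genes summed to 145 ± 8.46 in control and 157 ± 18.9 in *Tug1* KD myotubes at Rest, to 177 ± 12.4 and 260.3 ± 33.2 at EPS 0h and to 146 ± 14.5 and 215 ± 31.1 at EPS 3h.

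How the 3 genes related to each other depended on the libraries taken. As a description over 36 libraries that share batches and groups, Pearson's r of log2 CPM was 0.28 between *Sesn1* and *Sesn2*, 0.19 between *Sesn1* and *Sesn3* and -0.12 between *Sesn2* and *Sesn3*. After centring within groups the first of these was -0.59. Within each set of 18 libraries it was 0.57 (replicates 1 to 3) and 0.48 (replicates 4 to 6). For *Sesn1* and *Sesn3* r was 0.50 and 0.066 in these sets, and for *Sesn2* and *Sesn3* it was 0.07 and -0.66.

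Genes next to the sestrins were looked at because reads of overlapping genes cannot always be told apart. *Cep57l1*, which starts head to head with *Sesn1* on the opposite strand and shares 548 exon bases with it, was present at 6.91 to 17.98 CPM. Levels of overlapping genes are scaled by library size alone. The strand setting of the counting is not given in the sources used here. The log2 differences of *Cep57l1* with *Tug1* KD were 0.27 (FDR = 0.314), 0.38 (FDR = 0.0919) and 0.40 (FDR = 0.0828) at Rest, EPS 0h and EPS 3h. With the replicate block it rose by 0.29, 0.39 and 0.39 (FDR = 0.0426, 0.00376 and 0.00443). Other overlapping genes in the matrix reached at most 1.94 CPM. Of the nearest tested genes on each side, *Atpif1* and *Fam76b* passed no test with or without the block, and *Ccdc162* and *Armc2* passed only with it. *Armc2* did so with EPS in control, and *Ccdc162* at EPS 3h in *Tug1* KD myotubes, against Rest and against EPS 0h. *Med18*, a Mediator subunit next to *Sesn2*, fell with EPS by 0.91 (control) and 0.86 (*Tug1* KD) at EPS 0h on the log2 scale (FDR = 0.000921 and 0.0015). *Endod1*, next to *Sesn3*, fell with *Tug1* KD by 0.43, 0.70 and 0.70 at Rest, EPS 0h and EPS 3h (FDR = 0.000202, 7.08e-08 and 1.21e-07). It also fell with EPS 3h by 0.44 in control and 0.71 in *Tug1* KD myotubes (FDR = 1.61e-05 and 2.61e-09). At EPS 0h its log2 differences were -0.16 and -0.43 (FDR = 0.101 and 3.56e-05).

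Around the sestrins, 149 genes tested were grouped by role into 13 lists, chosen with earlier results of these data known, and a gene may stand in more than 1 list. With EPS 0h in control myotubes 34 rose and 37 fell, beside 20.5% and 18.4% of all genes tested, and in *Tug1* KD myotubes 40 rose and 46 fell, beside 24.4% and 21.2%. With EPS 3h 31 rose and 46 fell in control (26.1% and 25.9% of all genes) and 35 rose and 46 fell in *Tug1* KD myotubes (26.2% and 25.9%). With *Tug1* KD 11 rose and 5 fell at Rest, 9 rose and 10 fell at EPS 0h, and 8 rose and 10 fell at EPS 3h, beside 5.54% and 4.47%, 8.25% and 6.07%, and 6.38% and 5.11% of all genes. With the replicate block these *Tug1* KD counts were 14 and 18, 14 and 20, and 13 and 19. Over all 13995 genes tested the block gave 1273 and 1137, 1838 and 1568, and 1514 and 1364 in the same order. No list gene differed in its EPS response between LNAs by edgeR, where 0.00% of all genes did at EPS 0h in either direction and 0.00715% were higher and 0.00% lower at EPS 3h, and 2 list genes at each time point had an unadjusted p under 0.05.

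Those shares depend in part on the scaling. Scaling by library size alone shifted the median of all genes at EPS 3h by -0.17 in control and -0.16 in *Tug1* KD myotubes. It took the share of differentially expressed genes that were higher from 52.8% to 40.0% at EPS 0h and from 50.2% to 32.6% at EPS 3h in control, and from 53.6% to 40.6% and from 50.3% to 33.1% in *Tug1* KD myotubes. For *Tug1* KD at EPS 0h it took that share from 57.6% to 46.9%, and upper quartile factors took it to 44.1%.

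Among 13 upstream regulators of sestrins tested, 5 rose and 0 fell with EPS 0h in control myotubes, and 6 rose and 1 fell in *Tug1* KD myotubes, with a list median of 0.25 and 0.24 beside -0.03 for all genes in both. The shares of all genes were 20.5% and 18.4% in control and 24.4% and 21.2% in *Tug1* KD myotubes. *Atf3*, an immediate stress factor, rose by 1.36 (SE 0.101, FDR = 1.4e-12) in control and 1.46 (SE 0.101, FDR = 1.15e-13) in *Tug1* KD myotubes. *Foxo1*, a FOXO factor that acts in fasting muscle, rose by 0.70 (SE 0.143, FDR = 0.000192) and 0.66 (SE 0.143, FDR = 0.0003). *Hif1a*, the hypoxia factor, rose by 0.57 and 0.56 (FDR = 0.00293 and 0.00307), and *Nfe2l2*, which encodes NRF2, by 0.25 and 0.24 (FDR = 0.0249 and 0.0276). *Jun*, an AP-1 subunit, rose by 0.30 and 0.57 at EPS 0h and by 1.01 and 1.51 at EPS 3h (FDR = 0.0192, 3.15e-05, 4.24e-10 and 2.9e-14). *Atf4*, the factor of the integrated stress response, had log2 differences of -0.02 (FDR = 0.911) and -0.11 (FDR = 0.561) at EPS 0h. With *Tug1* KD the only call in this list was *Foxo3* at EPS 0h, which rose by 0.27 (SE 0.0868, FDR = 0.0324). With the replicate block 1 fell at Rest, 2 rose and 1 fell at EPS 0h, and 1 rose at EPS 3h.

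Next come the complexes that sestrins bind and those they oppose. In GATOR2, the direct partner, 0 of 5 genes rose with EPS in any contrast, and *Wdr59* fell by 0.35 and 0.39 at EPS 0h and by 0.51 and 0.34 at EPS 3h (control, *Tug1* KD; FDR = 0.000415, 9.23e-05, 1.18e-06 and 0.000294). *Wdr24* fell at EPS 3h by 0.51 in control and 0.26 in *Tug1* KD myotubes (FDR = 2.58e-05 and 0.022). In *Tug1* KD myotubes *Mios* also fell with EPS, by 0.36 at EPS 0h and 0.44 at EPS 3h (FDR = 0.00303 and 0.00028). With *Tug1* KD the complex was split, since *Wdr59* rose by 0.29, 0.25 and 0.45 at Rest, EPS 0h and EPS 3h (FDR = 0.0098, 0.0223 and 9.22e-05) and *Mios* fell by 0.41 and 0.46 at EPS 0h and EPS 3h (FDR = 0.00318 and 0.00126). *Seh1l* and *Sec13* lay between -0.14 and 0.12 in the 7 contrasts of EPS and *Tug1* KD and passed no test. In GATOR1 and its KICSTOR anchor, 1 of 6 genes rose and 4 fell with EPS 3h in control myotubes, and 2 rose and 2 fell in *Tug1* KD myotubes. Over all genes the shares were 26.1% and 25.9% in control and 26.2% and 25.9% in *Tug1* KD myotubes. *Itfg2*, of KICSTOR, rose by 0.60 and 0.81, and *Nprl3*, of GATOR1, fell by 0.46 and 0.28 (FDR = 1.46e-06, 3.34e-09, 7.62e-07 and 0.000816). With the replicate block, 2 genes each fell in GATOR2 and in this list with EPS 0h in control myotubes, against 1 each without it.

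Among the Rag GTPases and Ragulator, which carry mTORC1 to the lysosome, 6 of 11 genes rose with EPS 0h in each LNA and 0 (control) or 1 (*Tug1* KD) fell. For all genes the shares were 20.5% and 18.4% in control and 24.4% and 21.2% in *Tug1* KD myotubes. *Fnip1*, the folliculin partner, rose by 1.38 (SE 0.215, FDR = 3.79e-06) and 1.49 (SE 0.216, FDR = 8.43e-07), and *Rragd* by 0.97 and 0.94 (FDR = 1.4e-06 and 2.03e-06). *Castor1*, an arginine sensor, rose by 1.10 in control and 1.23 in *Tug1* KD myotubes while its relative *Castor2* fell by 0.45 and 0.46 (FDR = 8.84e-05, 1.51e-05, 0.000104 and 7.26e-05). *Slc38a9*, the lysosomal arginine sensor, rose with *Tug1* KD by 0.48, 0.73 and 0.65 at Rest, EPS 0h and EPS 3h (FDR = 0.0209, 0.00031 and 0.00165), the only sensor of 5 to do so, and with the replicate block *Castor2* fell by 0.23 at Rest and at EPS 0h (FDR = 0.0453 and 0.0316).

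The mTOR complexes and TSC were the list with most rises under *Tug1* KD, 5 of 12 genes in each condition, with 0 lower at Rest and 1 lower at each EPS time point. Of all genes, 5.54%, 8.25% and 6.38% rose with *Tug1* KD at Rest, EPS 0h and EPS 3h, and 4.47%, 6.07% and 5.11% fell. *Rptor*, the scaffold of mTORC1, rose by 0.57, 0.59 and 0.53 (SE 0.0962, 0.0964 and 0.0963, FDR = 6.42e-05, 3.55e-05 and 0.000218), from 117 ± 4.50 to 175 ± 20.5 CPM at Rest. *Deptor*, an inhibitor of both mTOR complexes, rose by 0.55 at EPS 0h and 0.46 at EPS 3h (FDR = 0.00214 and 0.0136), and *Mlst8*, a shared subunit, fell by 0.44 and 0.53 (FDR = 0.00836 and 0.00252). With EPS 0h *Rictor*, the scaffold of mTORC2, rose by 0.73 and 0.94, and *Mlst8* fell by 0.49 and 0.65 (control and *Tug1* KD; FDR = 0.00232, 0.000135, 0.00101 and 3.15e-05). Of 11 genes of AMPK and its kinases, 5 rose and 1 fell with EPS 3h in control and 4 rose and 1 fell in *Tug1* KD myotubes. Beside them, 26.1% of all genes rose and 25.9% fell in control, and 26.2% and 25.9% in *Tug1* KD myotubes. The catalytic subunit *Prkaa1* rose by 0.81 and 0.71 and the regulatory subunit *Prkag1* fell by 0.53 and 0.60 (FDR = 6.32e-06, 4.12e-05, 0.017 and 0.0075).

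In a list of other stress-induced genes (*Ddit4*, *Ddit4l*, *Trib3* and the *Gadd45* genes), more fell than rose at EPS 3h. *Ddit4l*, a relative of REDD1, fell by 2.15 (SE 0.356, FDR = 9.47e-06) and 2.35 (SE 0.361, FDR = 2.32e-06) at EPS 0h, and *Gadd45a* by 0.56 and 0.75 (FDR = 0.000565 and 1.02e-05). *Ddit4*, which encodes REDD1, had log2 differences of 0.85 (SE 0.375, FDR = 0.0702) and 0.65 (SE 0.375, FDR = 0.154) at EPS 0h. With the replicate block these were 0.62 (FDR = 0.0106) and 0.47 (FDR = 0.0442), so its call depended on the block. *Trib3* fell by 0.86 and 0.80 at EPS 3h (FDR = 0.0168 and 0.0271). At EPS 0h its log2 differences were 0.46 and 0.62 (FDR = 0.227 and 0.0928, and 0.0665 and 0.00486 with the block). In all, 1 of 6 rose and 4 fell with EPS 3h in each LNA, with list medians of -0.70 and -0.77. The shares over all genes were 26.1% and 25.9% in control and 26.2% and 25.9% in *Tug1* KD myotubes. The gene that rose was *Gadd45g*, by 0.76 and 0.55 (FDR = 3.46e-05 and 0.0015). *Gadd45a* rose with *Tug1* KD by 0.41 at Rest and 0.39 at EPS 3h (FDR = 0.0319 and 0.0417). With the block *Trib3* fell with *Tug1* KD by 0.64 and 0.61 there (FDR = 0.00592 and 0.00983).

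**Figure D4:**
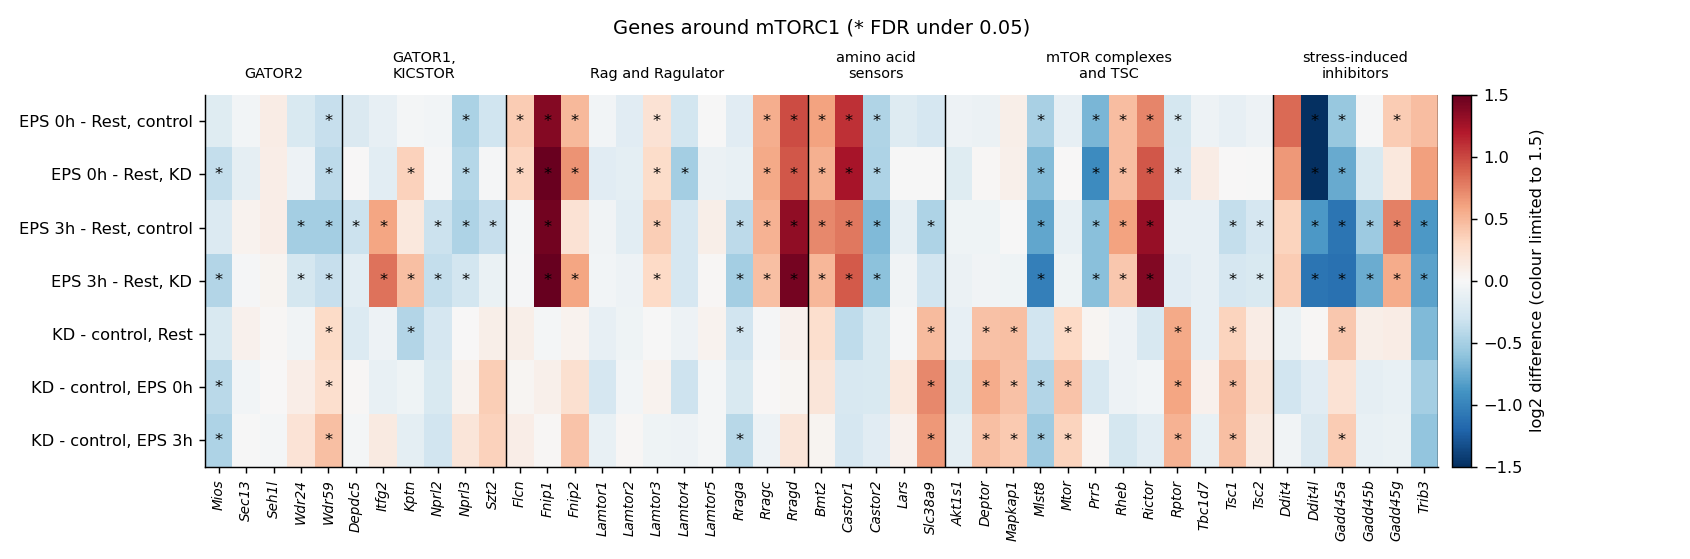
Heat map of log2 differences, 1 column per gene around mTORC1 grouped by role and 1 row per contrast, with colour limited to 1.5 in either direction and an asterisk where the FDR was under 0.05. *Rptor* and *Slc38a9* are red with *Tug1* KD in all 3 conditions, *Fnip1*, *Rragd* and *Castor1* are red in the 4 EPS rows, and *Ddit4l* is blue in them.

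Targets of the same regulators gave mixed directions, which the plot of the 4 target lists shows gene by gene. Of 26 p53 targets, 3 rose and 11 fell with EPS 0h in control and 3 rose and 13 fell in *Tug1* KD myotubes, with list medians of -0.15 and -0.29. The shares over all genes were 20.5% and 18.4% in control and 24.4% and 21.2% in *Tug1* KD myotubes. *Bbc3*, the pro-apoptotic PUMA gene, fell by 1.35 and 1.51 (FDR = 6.1e-06 and 1e-06), while the stress cytokine gene *Gdf15* rose by 0.934 and 1.296 (FDR = 0.00179 and 3.38e-05). With *Tug1* KD, 3 p53 targets rose at Rest, 1 rose and 2 fell at EPS 0h, and 2 fell at EPS 3h. *Eda2r*, a death receptor gene, rose by 0.52 and 0.54 at Rest and EPS 0h (FDR = 0.00597 and 0.00322). With the replicate block 4 p53 targets rose and 2 fell at Rest. At EPS 0h 2 rose and 5 fell with the block, and at EPS 3h 1 rose and 3 fell.

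**Figure D5:**
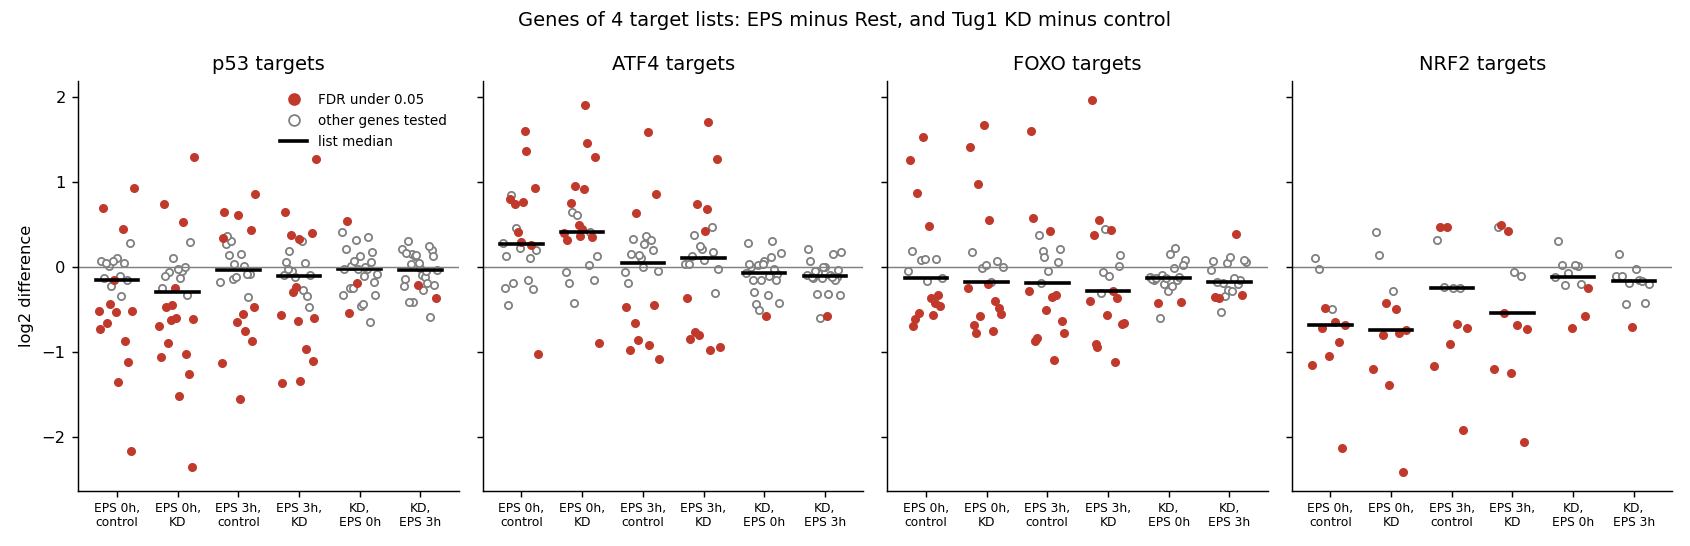
Log2 difference of every tested gene in the lists of p53, ATF4, FOXO and NRF2 targets, for EPS against Rest in each LNA and for *Tug1* KD against control at EPS 0h and EPS 3h, filled where the FDR was under 0.05, with a bar at the list median. NRF2 targets lie mostly below 0 with EPS 0h, ATF4 targets mostly above, and the list medians for *Tug1* KD are between -0.18 and -0.02.

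Of 22 ATF4 targets, 9 rose and 1 fell with EPS 0h in control and 12 rose and 1 fell in *Tug1* KD myotubes, with medians of 0.27 and 0.41. All genes tested had shares of 20.5% and 18.4% in control and 24.4% and 21.2% in *Tug1* KD myotubes. *Chac1*, which degrades glutathione, rose by 1.60 (SE 0.240, FDR = 2e-06) and 1.90 (SE 0.243, FDR = 7.65e-08), and *Atf5* fell by 1.02 and 0.90 (FDR = 0.000527 and 0.00162). With EPS 3h 3 rose and 7 fell in control, and 5 rose and 6 fell in *Tug1* KD myotubes. *Fgf21*, a stress-induced hormone gene, was the ATF4 target that fell with *Tug1* KD in each condition, by 0.71, 0.57 and 0.57 (FDR = 0.0065, 0.0265 and 0.0322). With the replicate block 0 ATF4 targets rose and 5 fell at Rest. At EPS 0h 1 rose and 3 fell with the block, and at EPS 3h 1 rose and 2 fell.

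Of 19 FOXO targets, 4 rose and 8 fell with EPS 0h in control and 4 rose and 9 fell in *Tug1* KD myotubes. Beside them, 20.5% of all genes rose and 18.4% fell in control, and 24.4% and 21.2% in *Tug1* KD myotubes. The share of FOXO targets that rose was thus near that of all genes. *Klf15* and *Irs2*, a muscle metabolic factor and the insulin receptor substrate, rose by 1.52 and 1.26 in control and by 1.67 and 1.41 in *Tug1* KD myotubes (FDR = 0.000149, 8.73e-07, 4.08e-05 and 8.16e-08). *Fbxo21*, a ubiquitin ligase subunit, fell with EPS 0h by 0.61 and 0.78 and with *Tug1* KD by 0.42 at EPS 0h (FDR = 7.11e-05, 1.48e-06 and 0.0119). With *Tug1* KD, 1 rose and 1 fell at Rest and 0 rose and 2 fell at EPS 0h. At EPS 3h 1 rose and 3 fell. With the replicate block these *Tug1* KD counts of FOXO targets were 2 and 4, 0 and 3, and 1 and 5.

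More antioxidant genes fell than rose with EPS 0h. Of 11 NRF2 targets 0 rose and 8 fell in each LNA, with medians of -0.68 and -0.74. Over all genes 20.5% rose and 18.4% fell in control, and 24.4% and 21.2% in *Tug1* KD myotubes. *Nqo1*, a quinone reductase, fell by 2.12 (SE 0.182, FDR = 3.16e-11) and 2.41 (SE 0.186, FDR = 1.69e-12), from 52.2 ± 4.00 to 11.98 ± 2.88 CPM in control myotubes. Among 14 antioxidant partners of sestrins, 1 rose and 5 fell in each LNA. *Keap1*, the NRF2 inhibitor that sestrins help to remove, fell by 0.54 and 0.71 (FDR = 0.0124 and 0.00104), *Srxn1*, or sulfiredoxin, by 0.88 and 0.78 (FDR = 0.00813 and 0.0158), and *Cul3*, the KEAP1 ligase scaffold, rose by 0.55 and 0.49 (FDR = 0.00277 and 0.00581). With *Tug1* KD none of the 14 partners was differentially expressed in any condition by edgeR (1 fell at Rest, 2 at EPS 0h and 1 at EPS 3h with the replicate block), while 3 NRF2 targets fell at EPS 0h and 1 at EPS 3h (3 with the block).

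The genes most like each sestrin were found by Pearson's r of log2 CPM over the 36 libraries, among 10289 tested genes with a mean of at least 5 CPM, and are a description of libraries that share groups and batches. For *Sesn1* they were *Lrrc1*, a scaffold protein gene (r = 0.92), *Atp2b1*, a plasma membrane calcium pump (0.91), and *Cnst* (0.91), and the lowest r was that of *Gprc5a* (-0.92). Within replicates 1 to 3 the 3 highest were 0.94 to 0.97, and within replicates 4 to 6 they were 0.81 to 0.90. Each of them was also higher with *Tug1* KD at Rest, *Lrrc1* by 0.60, *Atp2b1* by 0.70 and *Cnst* by 0.50 on the log2 scale, where *Sesn1* differed by 0.27.

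For *Sesn2* the most alike were *Rad9a*, a DNA damage checkpoint gene (r = 0.96), *Vdr*, the vitamin D receptor (0.94), and *B4galt5* (0.91), with *Lyrm2* lowest (-0.86). *Rad9a* was higher with EPS 0h by 0.88 in control and 0.99 in *Tug1* KD myotubes and *Vdr* by 0.72 and 0.91. Both differed little between LNAs, as *Sesn2* did, and genes chosen by r with *Sesn2* over these libraries would share its pattern. For *Sesn3* they were *Arhgef11*, *Itgav* and *Slc38a1* (0.85 each), with *Hax1* lowest (-0.85). *Slc38a1*, a glutamine transporter gene, was lower at EPS 3h by 0.45 in control and 0.35 in *Tug1* KD myotubes, and higher with *Tug1* KD by 0.44 at EPS 0h. Likeness above 0.9 was found for 5 genes with *Sesn1*, 5 with *Sesn2* and 0 with *Sesn3*.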

How the data were processed

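Poly-A RNA of 36 wells was sequenced. Reads were trimmed with fastp 0.14.1 and aligned by the authors with STAR 2.5 to GRCm39, and the deposited values are whole-number counts per gene without normalization. The counting mode and strand setting are not given in the sources used here. Genes without a name (1492) hold 0.0327% of the counts. Groups and replicate numbers came from the sample titles, and no library was left out. Any 2 libraries of a group differed by more than counting error.

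Counts were scaled by TMM and fitted with edgeR 4.0.16 in R 4.3.3 (quasi-likelihood, robust, 6 groups together, genes with at least 1 CPM in at least 12 libraries, FDR over 13995 genes under 0.05). A log2FC is a contrast of group means from this fit, and CPM values were computed here from the TMM-scaled libraries. Exceptions are the CPM of genes overlapping a sestrin, which used library size alone. The script was tested on simulated data with 200 changed genes.

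The members, the gene lists and the comparisons were chosen with earlier results of these data known. From each list up to 2 higher and 2 lower genes with the largest differences past the threshold were named per comparison. In the lists of upstream regulators, GATOR2 and other stress-induced genes any gene tested could be named. For each member the 3 genes with the highest and the gene with the lowest correlation, overlapping genes and the nearest tested genes were also named. Replicate numbers were taken as pairs where every same-number correlation after centring was over 0.1. This held for *Tug1* KD at EPS 0h and EPS 3h, for both EPS time points in control and for EPS 0h in *Tug1* KD myotubes. It did not hold for *Tug1* KD at Rest or EPS 3h in *Tug1* KD myotubes. In the 5 contrasts where it held, the best match had the same number in 6, 2, 2, 5 and 3 of 6, in the order given. A difference between the sets of replicates can raise these correlations, so pairing of wells is not shown. Alternatives were DESeq2 1.42.0, limma-voom (limma 3.58.1), other scalings and filters, the replicate block, a term for the set of replicates, each set alone, the compared groups alone and each replicate left out. Promoter windows came from the GRCm39 genome and its GENCODE annotation.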

Additional observations from a re-analysis of the deposited data

Results flagged for a closer look

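The EPS 0h response of *Sesn3* in *Tug1* KD myotubes had opposite signs in the sets of replicates. The mean log2 difference from Rest between libraries of the same number was 0.28 in replicates 1 to 3, where each of the 3 was above 0 (0.03 to 0.48), and -0.42 in replicates 4 to 6, where each was below 0 (-0.71 to -0.20). The difference between the sets was not tested. No library of the 18 groups of 6 values (3 sestrins in 6 groups) stood apart from the rest of its group.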

How the results depend on the processing

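Of 561 recomputed log2 differences of the sestrins, 555 moved by less than the spread between replicates and 15 changed sign, each of them near 0 or for *Sesn3* or *Sesn2* in 1 set of replicates. *Sesn1* with *Tug1* KD kept its direction under every alternative run, at 0.94 to 1.11 at EPS 0h and 0.82 to 1.06 at EPS 3h. The values that moved were *Sesn3* in *Tug1* KD myotubes, at 0.29 (replicates 1 to 3) and -0.43 (replicates 4 to 6) at EPS 0h and at 0.19 and -0.50 at EPS 3h, and its EPS 3h response difference between LNAs, at 0.69 and -0.091. The cause was not tested.

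The replicate block raised the number of differentially expressed genes with *Tug1* KD from 1401 to 2410 at Rest, from 2005 to 3406 at EPS 0h and from 1608 to 2878 at EPS 3h, and a set term gave 2232, 3179 and 2611. Replicates 1 to 3 alone gave 866, 940 and 852, replicates 4 to 6 alone gave 2256 at Rest, no filter gave 1295 at EPS 0h and 925 at EPS 3h, and the compared groups alone gave 831 at EPS 3h. Leaving out 1 replicate gave 1284 to 1670 at EPS 0h and 990 to 1403 at EPS 3h. For EPS against Rest, no filter gave 11468 against 7277 (control, EPS 3h) and 12730 against 7293 (*Tug1* KD, EPS 3h), and replicates 4 to 6 alone gave 3980 against 6388 (*Tug1* KD, EPS 0h). The response differed between LNAs for 0 genes at EPS 0h (1 with the block, 1 with the set term, 324 at an unadjusted p under 0.05) and for 1 at EPS 3h (8 with the block, 0 to 1 with a replicate left out, 430 unadjusted).

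For the 149 list genes with *Tug1* KD, the counts at Rest, EPS 0h and EPS 3h were 16, 19 and 18, with the block 32, 34 and 32, with no filter 9, 11 and 9, in replicates 1 to 3 alone 9, 6 and 10, and with a replicate left out 9 to 13, 9 to 17 and 11 to 16. The set term gave 26 at Rest and 31 at EPS 0h, and the compared groups alone gave 25 at Rest and 7 at EPS 3h. No named gene lost its call under the block. Depth limits genes near 1 CPM, not the sestrins, which had at least 382 counts in each library.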
